A study of Mus musculus musculus x M. m. domesticus and Mus musculus musculus x Mus musculus castaneus and Mus musculus domesticus with 42 samples.

Results

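Interferon response genes were followed in brain, liver and testis of house mouse subspecies and their F1 hybrids. The set was a list of 44 genes that interferon induces or that carry its signal, and a member was counted where an array probe set bore its symbol and no other. This held for 40 of the 44 genes, out of 18193 distinct gene symbols on the array, with 65 probe sets in all and several probe sets for 18 of the genes. Isg15 and Tgtp1 had only probe sets shared with another gene, and Oas1g and Ifi44 had none under those symbols, so these 4 were left out. The 40 comprised 4 sensors of foreign nucleic acid, 5 transcription factors, 9 RNA-binding and translation effectors, 5 virus restriction factors, 7 GTPases of the IRG and GBP families, 2 genes of the ISG15 system and 8 other induced genes.

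The animals were 14 males, 2 of each of 7 genotypes, and each gave 1 array of brain, 1 of liver and 1 of testis. The F1 were musculus x castaneus at 53 days of age, castaneus x musculus at 54 days, musculus x domesticus at 53 days and domesticus x musculus at 50 days, with the mother named first. The parents were M. m. castaneus at 47 days, M. m. domesticus at 45 days and M. m. musculus at 47 days, all from wild-derived inbred lines. The labels give no line names, so a difference between subspecies is one between the lines used, and no animal was described as infected or treated. Castaneus and musculus shared an age, whereas in the other comparisons genotype and age cannot be told apart. The submitters set out to find the mode of inheritance of expression differences between the subspecies.

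Type I interferons are secreted by cells that sense viral nucleic acid, and they signal through receptor-bound kinases to a complex of STAT proteins and Irf9. That complex turns on a large and shared set of antiviral genes, among them the sensors and Irf7 themselves, and many members are known to respond together. Interferon gamma uses a related route and is the stronger inducer of the IRG and GBP GTPases, which attack the vacuoles of intracellular parasites.

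Trimmed means of the 42 arrays lay between 496.87 and 498.59, which reflects the scaling of the deposited values and does not measure quality. Median signals lay between 95 and 183, with the lowest in castaneus x musculus F1 male 1 (95 in testis, 97 in liver). The correlation of log2 signals between the 2 males of a genotype lay between 0.958 and 0.981. The SD of their log2 difference ran from 0.381 in musculus brain to 0.599 in castaneus x musculus F1 liver. Summed signals of 6 liver markers were 124107 to 188419 on liver arrays and at most 3258 elsewhere, those of 5 brain markers 33524 to 46174 on brain arrays and at most 2935 elsewhere, and those of 6 testis markers 69374 to 128361 on testis arrays and at most 2467 elsewhere. Testis of the castaneus cross stood apart: 6618 of 45037 probe sets (14.7%) differed there between the reciprocal F1, against at most 38 in any other reciprocal comparison. In whole tissue, fewer cells of a type and less RNA per cell cannot be told apart.

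Liver was the tissue in which most of these probe sets were brightest. Over the 14 arrays of each tissue, the median signal was highest in liver for 35 of the 40 members, in testis for 3 (Dhx58, Eif2ak2, Herc6) and in brain for 2 (Ifit2, Cmpk2). The same count was not made over all probe sets, so it has no background here. The middle of these medians was 411 MAS5 units in liver, 154.75 in brain and 121.25 in testis. Iigp1, an IRG GTPase, had a median of 11815 in liver, against 238.5 in brain and 199 in testis. Signals of different probe sets are not on 1 scale, so only tissues were compared. The members below the 40th percentile of signal on every array were 0 in liver, 2 in brain (Zbp1, Gbp6) and 4 in testis (Zbp1, Ifit2, Gbp6, Cxcl10), and for these the arrays had little range to show a lower level. Of all probe sets, 21.4% in liver, 26.9% in brain and 24.6% in testis were this dim.

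**Figure D1:**
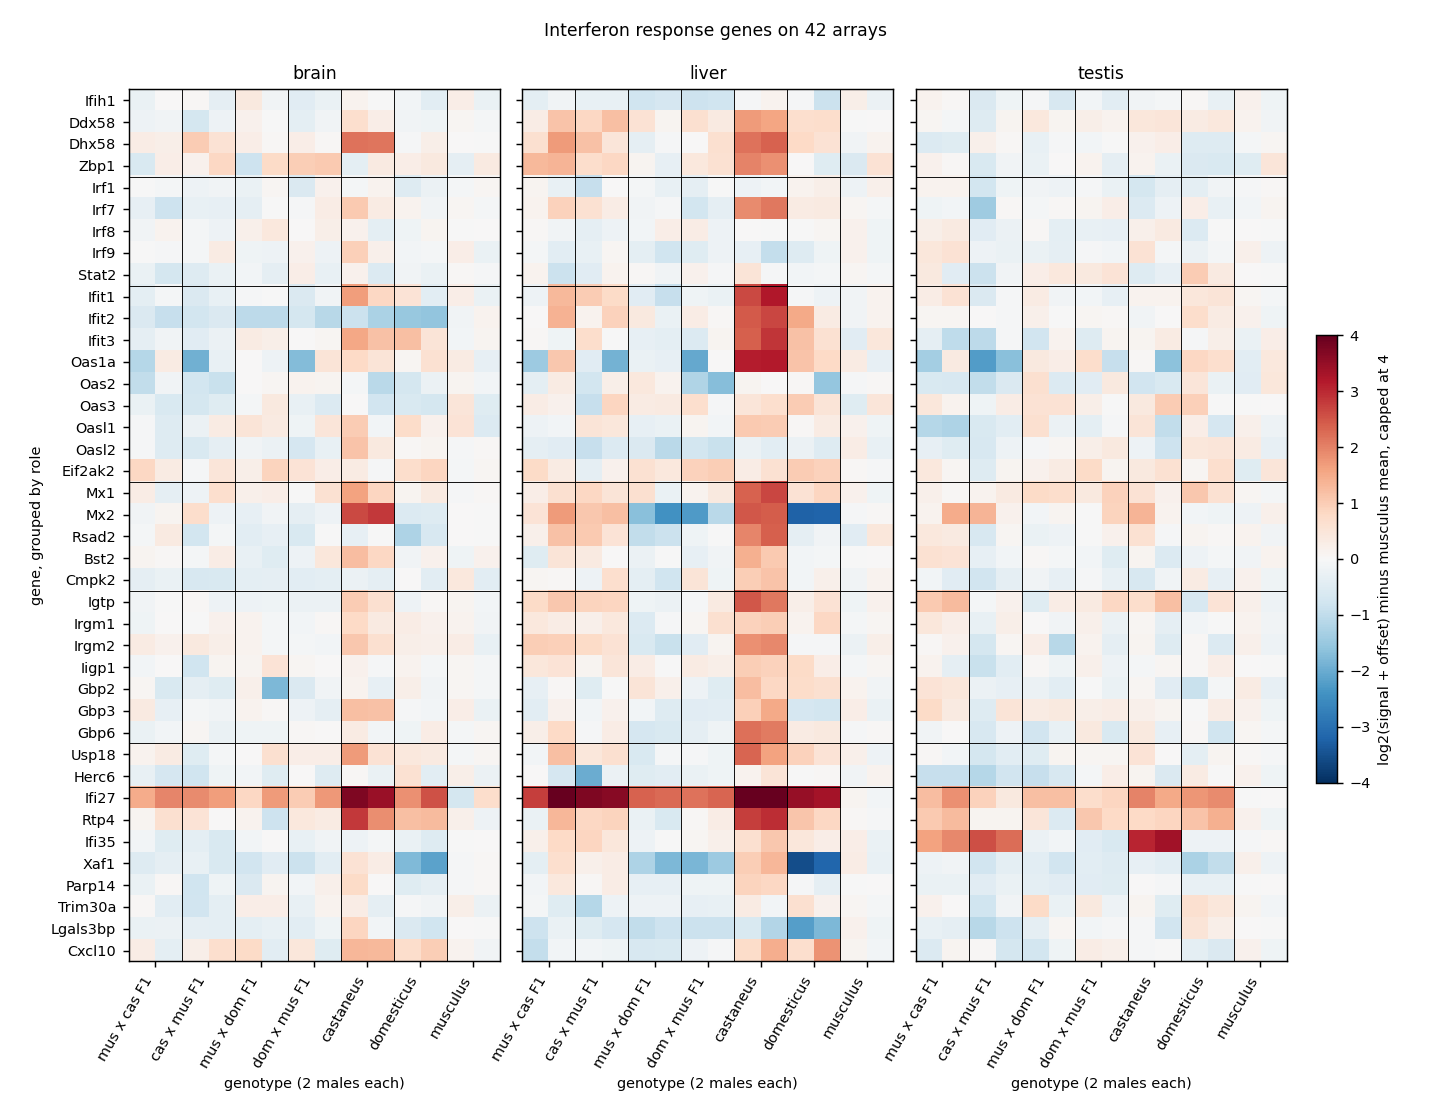
Log2 signal of the 40 genes (rows, grouped by role) on 42 arrays (columns, 2 males per genotype) minus the mean of the 2 musculus arrays of the same tissue, with colours capped at 4. Castaneus liver holds the broadest block of higher values, Ifi27 lies above musculus on every array of the other genotypes, and Ifi35 stands out in testis of castaneus and its F1.

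The broadest difference lay in liver between castaneus and musculus. Of the 40 members, 22 were higher in castaneus and none was lower (limma, adjusted p under 0.05), against 1.79% of all 45037 probe sets higher and 1.86% lower. The median log2 difference over all 40 was 1.12, against -0.06 over all probe sets, and 36 of the 40 were positive. The share of all probe sets that were positive was not counted. In either direction, 3.65% of all probe sets were called. The members were chosen with earlier results of these data known, so these shares do not test the list as a whole. The background also differs in makeup, since 21.4% of all probe sets but 0 members were dim on every liver array. By role, the higher genes were 3 of 4 sensors, 1 of 5 transcription factors, 5 of 9 RNA-binding and translation effectors, 4 of 5 virus restriction factors, 5 of 7 GTPases, 1 of 2 genes of the ISG15 system and 3 of 8 other induced genes. Log2 differences were taken on signal plus 31 units and understate the change of dim probe sets.

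Among the sensors, Dhx58, the RIG-I-like helicase also called LGP2, had liver signals of 812 and 931 in castaneus, against 138 and 176 in musculus, a log2 difference of 2.27 ± 0.365 (SE, adjusted p = 0.00384). Its 2 other probe sets were not called, at 0.80 and -0.75. Ddx58, which encodes the RNA sensor RIG-I, read 1950 and 1761 in castaneus livers and 568 and 578 in musculus livers (1.64 ± 0.257, adjusted p = 0.00319), and its 2 other probe sets, at -0.17 and 0.41, were not called. Zbp1, a sensor of Z-form nucleic acid, was higher by 1.91, with 743 and 658 in castaneus and 100 and 259 in musculus. Its other, dimmer probe set (1.37) was not called. The fourth sensor, Ifih1, gave 2419 and 2755 in castaneus and 2953 and 2141 in musculus, so its groups overlapped.

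Irf7, the factor that amplifies interferon production, was the single transcription factor called. It read 2021 and 2355 in castaneus livers and 561 and 494 in musculus livers (1.99 ± 0.246, adjusted p = 0.000599). The other 4 (Irf1, Irf8, Irf9, Stat2) had log2 differences between -0.63 and 0.23, and the median of the 5 was 0.01. Irf9, the DNA-binding subunit of the STAT complex, read 601 and 379 in castaneus livers and 848 and 672 in musculus livers, and was not called.

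The 3 Ifit genes, whose products bind viral RNA and hold back its translation, were all higher. Ifit1 had signals of 2793 and 4172 in castaneus livers and 383 and 465 in musculus livers, a log2 difference of 2.93 ± 0.376 (adjusted p = 0.000781). Ifit3 read 1096 and 1555 in castaneus and 126 and 269 in musculus (2.62 ± 0.373, adjusted p = 0.0016). Ifit2 was dim, at 192 and 228 in castaneus and 6 and 14 in musculus (2.56 ± 0.497, adjusted p = 0.0124). The oligoadenylate synthetases, which switch on RNase L, were called in part. Oas1a reached 3432 and 3508 in castaneus livers, against 463 and 287 in musculus livers (3.14 ± 0.747, adjusted p = 0.0368), and Oasl1, a synthetase-like inhibitor of Irf7 translation in mice, was higher by 1.04. Oas2, Oas3 and Oasl2 had differences between -0.32 and 0.57 and were not called, nor was Eif2ak2, the kinase PKR, at 0.44.

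Of the virus restriction factors, the dynamin-like GTPases Mx1 and Mx2 differed most. Mx1 read 515 and 641 in castaneus livers and 87 and 64 in musculus livers (2.52 ± 0.36, adjusted p = 0.00164), and Mx2 read 3721 and 3577 in castaneus and 619 and 673 in musculus (2.44 ± 0.4, adjusted p = 0.00442). Rsad2, the enzyme viperin, was higher by 2.18 and Bst2, the tether that holds budding virions to the cell, by 1.23. Other probe sets of Rsad2 gave 1.49, which was called, and 0.62, which was not. Cmpk2, a mitochondrial nucleotide kinase that neighbours Rsad2, had 503 and 560 in castaneus against 217 and 265 in musculus and was not called (1.05).

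Of the GTPases, Igtp, an IRG protein that acts at parasite vacuoles, had liver signals of 10581 and 8202 in castaneus and 1666 and 2132 in musculus (2.29 ± 0.201, adjusted p = 4e-05). Gbp6 was higher by 2.13 ± 0.217, Irgm2 by 1.88 ± 0.21, Gbp3 by 1.24 ± 0.295 and Iigp1 by 0.95 ± 0.206. The other probe set of Gbp6 (1.31) was not called. Irgm1 (0.95) and Gbp2 (1.03) missed the threshold, although another probe set of Gbp2 was called (1.43). In the ISG15 system, Usp18, the protease that removes ISG15 and dampens the receptor, was higher by 1.96 ± 0.371, while Herc6, the mouse ISG15 ligase, was not called (0.32).

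The largest difference of all members belonged to Ifi27, a small membrane protein gene used as a marker of interferon exposure. Its liver signals were 16366 and 17664 in castaneus and 357 and 305 in musculus, a log2 difference of 5.56 ± 0.376 (adjusted p = 4.57e-06). A second Ifi27 probe set gave 7.48. Rtp4, an interferon-induced chaperone of G protein-coupled receptors, read 3650 and 4201 in castaneus and 532 and 493 in musculus (2.86 ± 0.366, adjusted p = 0.000763), although its other, dimmer probe set (1.37) was not called. Parp14, an ADP-ribosyltransferase, was higher by 0.86, and its other, dimmer probe set (0.97) was not called. Ifi35, Xaf1, Trim30a and Cxcl10 lay between 0.11 and 1.16 without a call, and Lgals3bp, a secreted galectin-binding glycoprotein, lay at -0.88. Another, dimmer probe set of Ifi35 was called (0.75).

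**Figure D2:**
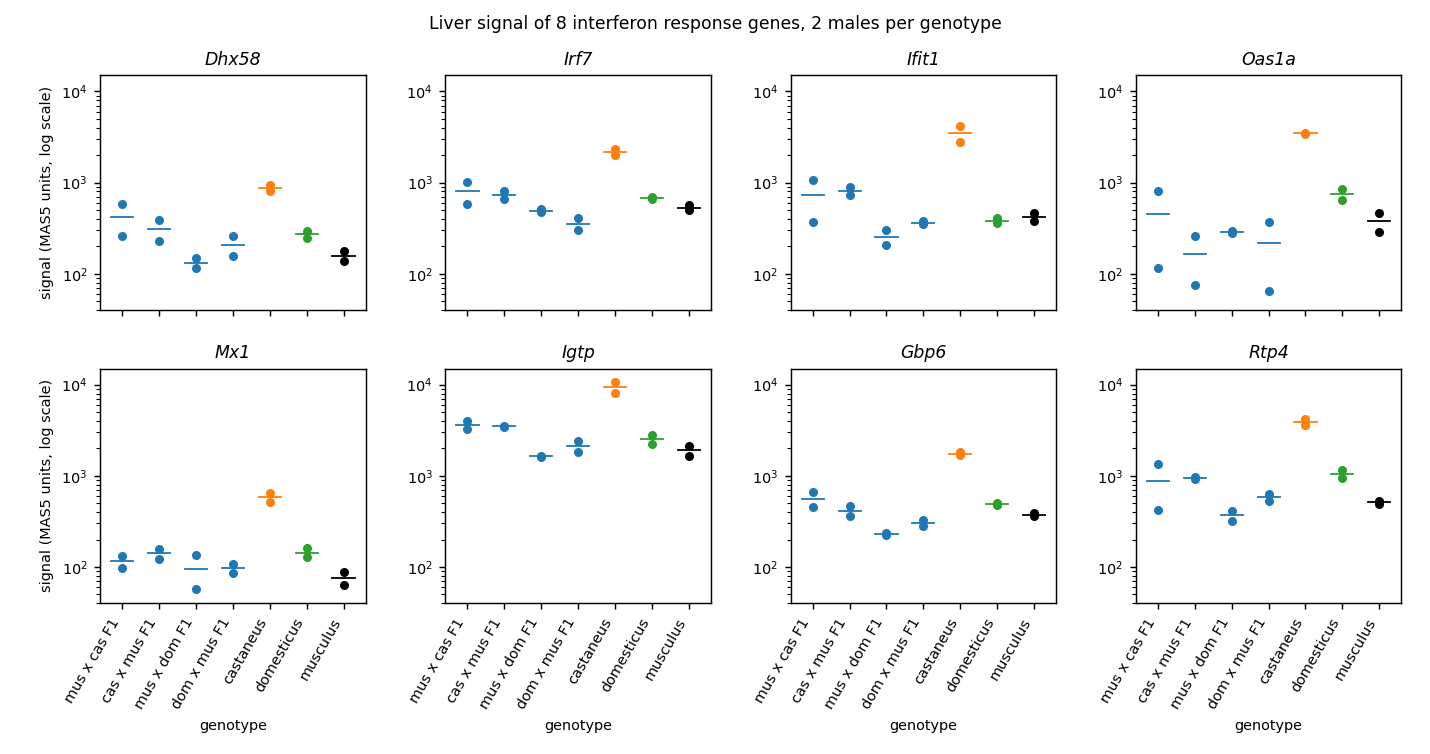
Liver signal (MAS5 units, log axis) of 8 genes in each of the 2 males of 7 genotypes, with a bar at each mean. Both castaneus males lie above all 12 other males in each panel.

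The number of higher genes depended on single animals in part. It was 13 without castaneus replicate 1 and 14 without musculus replicate 2, and the log2 differences of the 22 were positive in all 4 such fits. In 13 of the 22 the call lasted without each of the 4 arrays, namely Ddx58, Dhx58, Irf7, Ifit1, Ifit3, Mx1, Mx2, Rsad2, Igtp, Irgm2, Gbp6, Ifi27 and Rtp4. The call was lost without any 1 of the 4 arrays for Ifit2, Oas1a, Iigp1, Gbp3 and Parp14, and without some of them for Zbp1, Oasl1, Bst2 and Usp18. Against domesticus, which shares the castaneus arrays, 19 members were higher in castaneus liver and 0 were lower (1.66% of all probe sets higher, 3.57% in either direction), with a median log2 difference of 1.09 against -0.01 over all probe sets. The largest were Mx2 (5.66 ± 0.4) and Xaf1 (4.52 ± 0.333), although the other Xaf1 probe set pointed the opposite way (-1.07) without a call. That count was 11 without castaneus replicate 1 and 12 without domesticus replicate 2.

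Resident macrophage markers summed to more in both castaneus livers than in both musculus livers. The summed signal of 10 macrophage and Kupffer cell markers was 15647 and 18968 in castaneus livers, against 8371 and 8858 in musculus livers. Csf1r, the macrophage growth factor receptor, was the single marker of the list called (1.39, adjusted p = 0.0244), and Csf1r and Cd5l gave most of the sum. Lyz2 read 405 and 257 in castaneus and 434 and 478 in musculus, and Adgre1 overlapped, with 784 and 829 in castaneus and 493 and 901 in musculus. The sum was 13039 and 14391 in domesticus livers. There 1 member was higher and 3 were lower than in musculus, with a median log2 difference of 0.27 over the 40. Summed signals of 7 neutrophil genes were 1312 to 1563 in castaneus livers and 1126 to 1223 in musculus livers. Those of 6 T cell genes were 277 to 447 in castaneus and 375 to 429 in musculus, of 5 B cell genes 1015 to 1223 in castaneus and 1644 to 4516 in musculus, of 6 natural killer cell genes 543 to 929 in castaneus and 797 to 1065 in musculus, and of 6 dendritic cell genes 663 to 715 in castaneus and 1189 to 1244 in musculus. No marker gene read 0 on all arrays, and the part of these cells in the result was not tested.

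Genes of the pathway outside the 40 were measured for 53 of 64 listed. In castaneus liver 7 were higher and 1 was lower than in musculus, with a median log2 difference of 0.17. The 7 were Psmb9 (2.44), Psmb8 (1.98) and Tap1 (1.42), which prepare peptides for MHC class I, the peptide-loading chaperone Tapbp (1.01), the IRG GTPase Ifi47 (2.09), the antiviral factor Samd9l (1.95) and the adaptor Myd88 (0.85). The lower one was Jak1, a kinase of the interferon receptors (-0.59). None of the 6 measured interferon genes was called between castaneus or domesticus and musculus in any tissue. In liver, the beta interferon gene Ifnb1 averaged 62 in castaneus and 100 in musculus, and the gamma interferon gene Ifng 16.5 in castaneus and 14.5 in musculus. These Ifng means lay below the 31 units added to every signal, as did the genotype means of Ifna4 in brain (10 to 25). For probe sets this dim, the lack of a call does not show equal levels.

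In the F1 of castaneus and musculus, most genes that were high in castaneus liver lay nearer to musculus than to castaneus, on the linear scale in 22 of 22 and on the log2 scale in 19 of 22. Compared with castaneus, 14 of the 40 members were lower in the mean of both reciprocal F1 and 0 were higher (0.32% of all probe sets lower, 0.859% in either direction), and the median log2 difference was -1.01, against -0.04 over all probe sets. Compared with musculus, 2 members were higher and 0 were lower (0.651% of all probe sets in either direction), namely Ifi27 and Igtp. Ifi27 kept its call without each array, whereas Igtp did not. In all 22 genes higher in castaneus liver, each of the 4 F1 arrays lay below both castaneus arrays, and in 12 of them at least 1 F1 array lay within or below the musculus range. Of all 806 probe sets higher in castaneus liver, 70.5% had all 4 F1 arrays below both castaneus arrays and 21.5% had an F1 array within or below the musculus range. These shares are descriptions. The count of 2 was 1 without musculus replicate 1, musculus x castaneus F1 replicate 2 or either castaneus x musculus F1 replicate, and 4 without musculus x castaneus F1 replicate 1. These comparisons share their parental arrays with the comparison of the parents.

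Oas1a showed the widest gap to castaneus, with 115 and 800 in musculus x castaneus F1, 258 and 75 in castaneus x musculus F1, and 3432 and 3508 in castaneus livers. The F1 mean lay below castaneus by a log2 difference of -3.83 ± 0.647 (adjusted p = 0.0129) and was not distinguished from musculus (-0.68, 95% interval -2.09 to 0.72). Ifit3 read 194 and 162 in musculus x castaneus F1, 319 and 182 in castaneus x musculus F1, 1096 and 1555 in castaneus, and 126 and 269 in musculus. Its difference from castaneus was -2.49 ± 0.323 (adjusted p = 0.00217), and 3 of the 4 F1 males lay between the musculus males.

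Ifi27 kept an intermediate level. It had 2449 and 8186 in musculus x castaneus F1, 4756 and 4438 in castaneus x musculus F1, 16366 and 17664 in castaneus, and 357 and 305 in musculus livers. The F1 mean was lower than castaneus (-1.9 ± 0.325, adjusted p = 0.0141) and higher than musculus (3.66 ± 0.325, adjusted p = 0.000133). Igtp read 3261 and 4007 in musculus x castaneus F1 and 3513 and 3451 in castaneus x musculus F1, against 10581 and 8202 in castaneus (-1.39, adjusted p = 0.00176) and 1666 and 2132 in musculus (0.9, adjusted p = 0.037). Without single arrays, the difference of Igtp from musculus ranged from 0.73 to 1.08, and most of these fits lost its call. The other genes lower in these F1 than in castaneus were Irf7, Ifit1, Oasl1, Mx1, Rsad2, Bst2, Irgm2, Gbp3, Gbp6 and Rtp4, from -0.87 for Oasl1 to -2.2 for Ifit1.

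On the linear signal scale, with musculus at 0% and castaneus at 100%, the F1 mean of the 22 genes lay at a median of 15%, from -2.7% for Gbp3 to 41.5% for Ddx58. On this scale all 22 were below the midpoint of 50%. Over all 806 probe sets higher in castaneus liver the median was 46%, and 56.9% lay below the midpoint. On log2(signal + 31), the scale of the tests, the median of the 22 was 24.7%, from -21.7% for Oas1a to 65.9% for Ifi27, against 59.1% over the same 806 probe sets. There 19 of the 22 lay below the midpoint, against 34.9% of the 806, and Ddx58 (53%), Zbp1 (55.2%) and Ifi27 lay above it. These positions are descriptions and were not tested. Against the parental mean of log2 values, limma called 0 of the 40 members in liver (15 at an unadjusted p under 0.05, median -0.35 against -0.06 over all probe sets, 0.109% of all probe sets called), and 0 were called with the mean taken on the linear scale (median -0.52). Oas1a had the largest such difference, -2.25 ± 0.528 with an adjusted p of 0.237. The share of all probe sets at an unadjusted p was not counted, so the 15 have no background here.

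**Figure D3:**
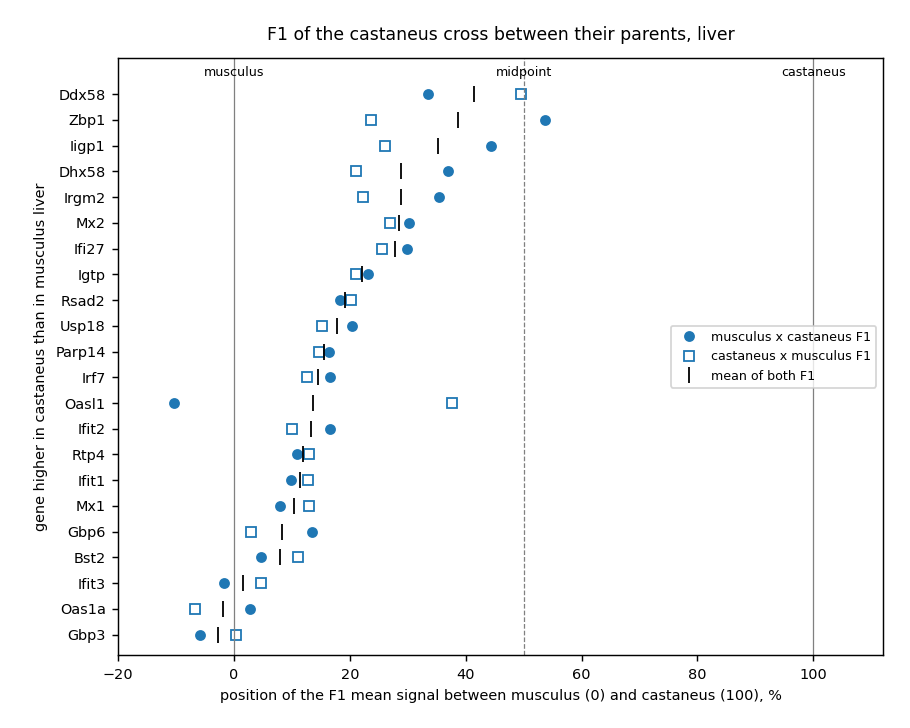
Position on the linear signal scale of the liver signal of both reciprocal F1 between the musculus mean (0%) and the castaneus mean (100%) for the 22 genes higher in castaneus liver. On this linear scale the mean of both F1 lies left of the midpoint in all 22, Zbp1 of musculus x castaneus F1 alone lies right of it at 53.7%, and the reciprocal F1 are farthest apart for Oasl1 and Zbp1.

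The count against castaneus was sensitive to single arrays. It was 3 without castaneus replicate 2, 6 without castaneus replicate 1 and 8 without castaneus x musculus F1 replicate 2, with all 14 differences negative in each such fit. Ifit3, Igtp and Gbp6 stayed called without each of the 6 arrays. With musculus x castaneus F1 alone, 9 members were called. The macrophage marker sum was 5871 and 11736 in musculus x castaneus F1 and 10735 and 8690 in castaneus x musculus F1, all below the castaneus sums and on both sides of the musculus range of 8371 to 8858, and its part in the F1 levels was not tested. The 2 musculus x castaneus F1 livers differed between themselves: male 2, with the higher marker sum, was higher in 27 of the 40 members, by a median of 0.45 on the log2 scale, including Ifi27 (8186 against 2449 in male 1) and Ifit1 (1080 against 366 in male 1).

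Brain showed fewer differences between castaneus and musculus. Of the 40 members, 7 were higher in castaneus and 1 was lower, against 1.97% of all probe sets higher and 1.77% lower (3.75% in either direction), and the median log2 difference was 0.45, against -0.06 over all probe sets. Ifi27 read 3232 and 2632 in castaneus brains and 120 and 363 in musculus brains (3.6 ± 0.441, adjusted p = 0.00102). Mx2 read 369 and 423 in castaneus and 34 and 33 in musculus (2.72 ± 0.278, adjusted p = 0.000288). Both castaneus brains lay above both musculus brains in each gene.

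Rtp4 had 685 and 342 in castaneus brains and 87 and 57 in musculus brains (2.34 ± 0.39, adjusted p = 0.00651), and its other, dimmer probe set (0.61) was not called. Dhx58 was near the bottom of the scale in musculus, with 141 and 140 in castaneus and 8 and 7 in musculus (2.16 ± 0.194, adjusted p = 0.000149), but its brightest probe set in brain gave -0.42 and was not called, so its direction depends on the probe set. Ifit3 was higher by 1.35 (540 and 408 in castaneus, 151 and 182 in musculus), Gbp3 by 1.19 (418 and 405 in castaneus, 205 and 129 in musculus) and Igtp by 0.84 (513 and 387 in castaneus, 254 and 218 in musculus). Ifit2 went the other way, with 232 and 166 in castaneus brains against 406 and 493 in musculus brains, and fell by 1.07. In liver, Ifit2 was higher in castaneus. Of members not called in brain, other, dim probe sets of Gbp6 (1.43) and Iigp1 (1.15) were called higher in castaneus.

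The brain count was 3 without musculus replicate 2, 4 without castaneus replicate 1 and 5 without musculus replicate 1, and Ifi27, Mx2 and Dhx58 stayed called without each array. Castaneus male 1 read higher than male 2 in 35 of the 40 members in brain, by a median of 0.42, against a median of 0.1 over all probe sets; in liver the same male was higher in 18 of the 40. Summed macrophage markers were 4964 to 5845 in castaneus brains and 5280 to 5590 in musculus brains, and summed signals of 5 microglia markers 1572 to 1780 in castaneus and 1965 to 2057 in musculus. Of the 53 other pathway genes, 4 were higher in castaneus brain (Samd9l 1.63, Pml 1.45, Ifitm3 0.97, Tapbp 0.64) and 2 were lower (the immunoproteasome subunit Psmb10 -1.45 and the feedback inhibitor Socs3 -1.29).

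In F1 brains of this cross, most of these genes lay near the musculus level. Compared with castaneus, 6 members were lower (0.122% of all probe sets lower, 0.675% in either direction), namely Mx2, Rtp4, Dhx58, Ifit3, Gbp3 and Igtp. Compared with musculus, limma called 0 of the 40 (7 at an unadjusted p under 0.05, with 0.644% of all probe sets called). That share is at the adjusted threshold and is no background for the 7. Mx2 read 28 and 39 in musculus x castaneus F1, 75 and 25 in castaneus x musculus F1, 369 and 423 in castaneus, and 34 and 33 in musculus. Its difference from castaneus was -2.6 ± 0.241 (adjusted p = 0.000627), and the musculus males lay within the range of the F1. Ifi27 read 654 and 904 in musculus x castaneus F1 and 870 and 741 in castaneus x musculus F1, and was called neither against castaneus (-1.85, adjusted p = 0.0652) nor against musculus (1.74, adjusted p = 0.0798).

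The 7 genes higher in castaneus brain had F1 means at a median of 2.3% of the way from musculus to castaneus. Over the 889 probe sets higher in castaneus brain the median was 52.8%. All 7 lay below the midpoint, against 42.9% of the 889. On the log2 scale the median of the 7 was 4.6%, up to 48.5% for Ifi27, against 65.3% over the 889. There too all 7 lay below the midpoint, against 25.4% of the 889. The count of 6 was 2 without castaneus replicate 1 and 3 without castaneus x musculus F1 replicate 2, and also 3 with either reciprocal F1 alone. Against the mean of the parents, limma called 0 members (15 at an unadjusted p under 0.05, 0.0333% of all probe sets called), with a median of -0.38 against 0 over all probe sets. The share called is at the adjusted threshold and is no background for the 15.

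In brain, castaneus was higher than domesticus in 6 members and lower in 0 (3.69% of all probe sets called), namely Mx2 (3.26), Xaf1 (2.41), Dhx58 (2.07), Gbp3 (1.26), Lgals3bp (1.07) and Igtp (0.92). The count was 3 without castaneus replicate 1 or either domesticus replicate. In brain the other probe set of Xaf1 (-1.08) and the brightest one of Dhx58 (-0.35) pointed the opposite way without a call. In testis 2 members were higher in castaneus than in domesticus (7.59% of all probe sets called), namely Ifi35 (3.42) and Dhx58 (0.74). Of members not called in testis, other probe sets of Xaf1 (-1.53), Stat2 (-1.15) and Eif2ak2 (-1.1) were called lower in castaneus.

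Domesticus differed from musculus in few of these genes, led by Ifi27, Mx2 and Xaf1. The comparison uses the musculus arrays of the castaneus comparison again. In liver 1 member was higher and 3 were lower, out of 3.51% of all probe sets called, and the median log2 difference was 0.27, against -0.05 over all probe sets. Ifi27 was the higher one, with 3967 and 3619 in domesticus livers against 357 and 305 in musculus livers (3.4 ± 0.376, adjusted p = 0.000243). Mx2 read 41 and 43 in domesticus and 619 and 673 in musculus (-3.21 ± 0.4, adjusted p = 0.00063), so it was lowest in domesticus and highest in castaneus. Xaf1, an inhibitor of the apoptosis blocker XIAP, read 76 and 109 in domesticus and 1505 and 995 in musculus (-3.36 ± 0.333, adjusted p = 0.000105).

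Lgals3bp had 1297 and 1762 in domesticus livers against 6917 and 5446 in musculus livers (-2 ± 0.239, adjusted p = 0.000461). All 4 liver calls lasted without each of the 4 arrays. The other probe set of Xaf1 pointed the opposite way in domesticus in every tissue, at 1.49 in brain, at 1.32 in liver and at 1.37 in testis, where it was called (adjusted p = 0.0256). Of members not called, other probe sets were called higher in domesticus for Eif2ak2 (2.76 in liver, 1.49 in testis), Iigp1 (0.92 in liver) and Stat2 (1.23 in testis). Those of Eif2ak2 and Stat2 were dim. On that Eif2ak2 probe set castaneus was called lower than domesticus in brain (-1.23), liver (-1.99) and testis (-1.1). The part of sequence differences under the probes was not tested.

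In brain, 1 member was higher and 2 were lower in domesticus (3.76% of all probe sets called). Ifi27 read 840 and 1394 in domesticus brains and 120 and 363 in musculus brains (2.19 ± 0.441, adjusted p = 0.0181), a call lost without domesticus replicate 2 or musculus replicate 1 (1.5 to 2.88 over the 4 fits). Xaf1 read 115 and 82 in domesticus and 452 and 488 in musculus (-1.96 ± 0.221, adjusted p = 0.00054). Ifit2 read 135 and 130 in domesticus and 406 and 493 in musculus (-1.55 ± 0.223, adjusted p = 0.00255). Of the other pathway genes, Socs3 was lower in domesticus brain (-1.47), and Myd88 (1.22) and Psmb8 (1.41) were higher in domesticus liver.

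**Figure D4:**
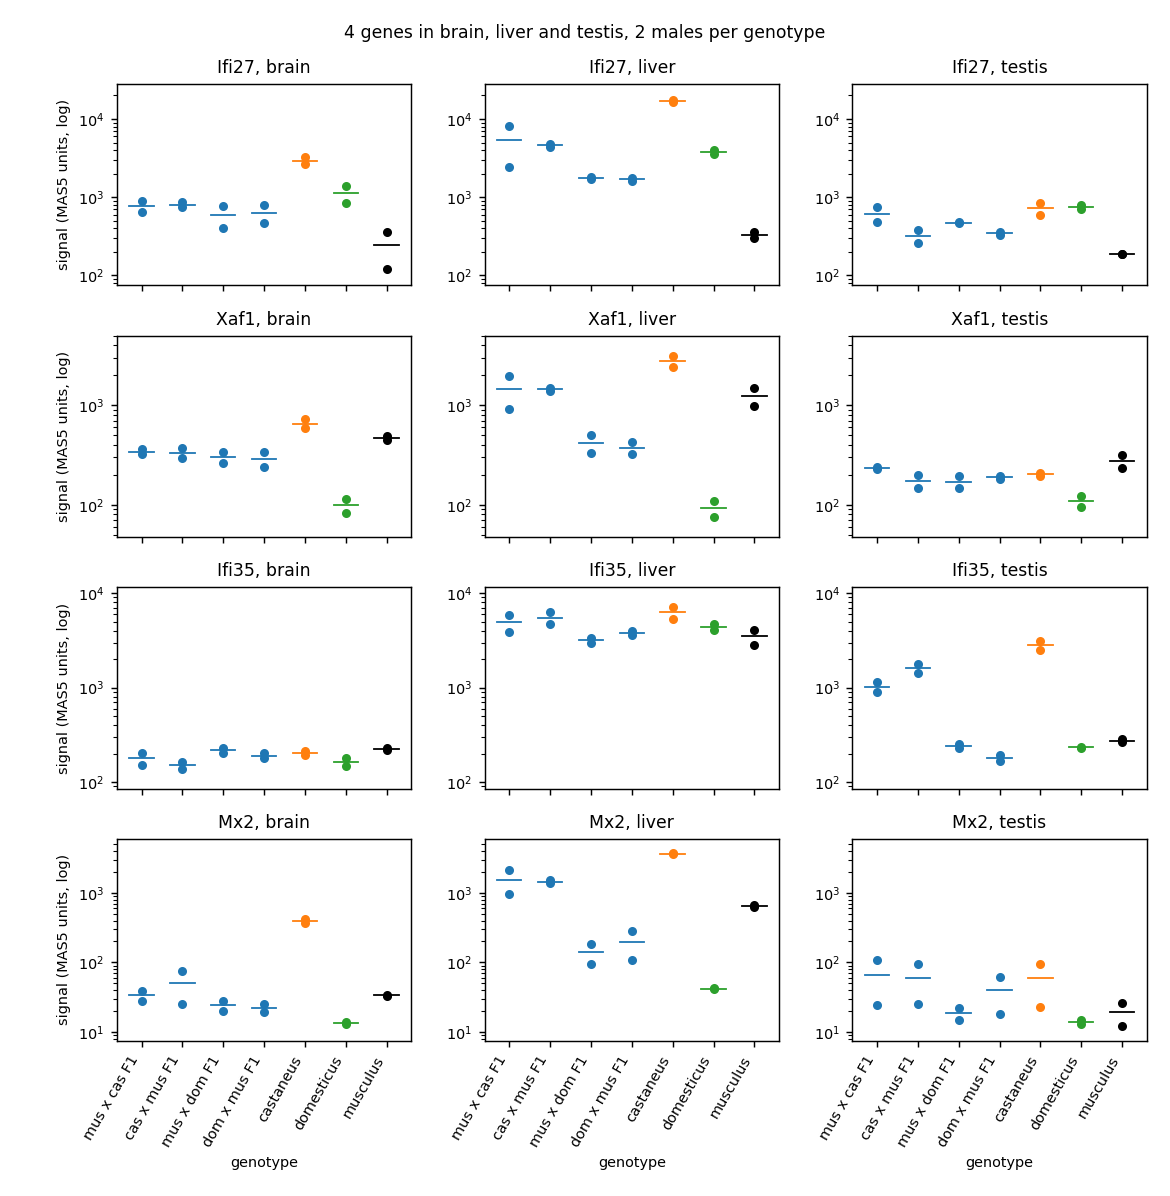
Signal (MAS5 units, log axis shared along each row) of Ifi27, Xaf1, Ifi35 and Mx2 in brain, liver and testis, as 2 males per genotype with a bar at each mean. Ifi27 is lowest in musculus in all 3 tissues, Xaf1 lowest in domesticus, testis Ifi35 highest in castaneus and its F1 with musculus, and liver Mx2 runs from 41 in domesticus to 3721 in castaneus.

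Testis showed few differences in these genes. Between castaneus and musculus 2 members were higher and 0 were lower, with 7.91% of all probe sets called and a median of -0.02 against 0.02 over all probe sets. Ifi35, a leucine zipper protein that interferon induces, read 2510 and 3108 in castaneus testes and 267 and 283 in musculus testes (3.21 ± 0.171, adjusted p = 2.44e-07). Its 2 other probe sets were also higher, by 3.29 and 0.99. Ifi27 read 839 and 599 in castaneus and 188 and 190 in musculus (1.75 ± 0.226, adjusted p = 0.000336).

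Between domesticus and musculus testis 2 members were higher and 2 were lower (7.81% of all probe sets called). Ifi27 had 711 and 793 in domesticus against 188 and 190 in musculus (1.83 ± 0.226, adjusted p = 0.000226). Xaf1 had 94 and 123 in domesticus against 318 and 232 in musculus (-1.13 ± 0.237, adjusted p = 0.0102). Rtp4 (85 and 110 in domesticus, 29 and 16 in musculus, 1.27) and Dhx58 (871 and 869 in domesticus, 1195 and 1320 in musculus, -0.51) lost their calls without any 1 of the 4 arrays. The count was 1 without domesticus replicate 1 or musculus replicate 1, and 2 without domesticus replicate 2 or musculus replicate 2. Dhx58 was brighter in testis than in liver in every parent, and its castaneus difference in testis (1407 and 1533 in castaneus, 1195 and 1320 in musculus) was not called. Of the 53 other pathway genes, 2 were higher in castaneus testis (Samd9l 1.28, Tapbp 0.51) and 4 were lower (Socs3 -2.09, Il10rb -0.85, Psmb10 -0.84, Isg20 -0.67). In domesticus testis 3 were higher (Myd88 1.65, Ifi204 1.46, Tapbp 0.59) and 4 were lower (Socs3 -2.34, Irf2 -0.88, Jak1 -0.68, Isg20 -0.55).

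The 2 testis arrays of musculus x castaneus F1 lay below those of every other genotype in the summed microglia list, of which Aif1 made up most. That sum was 4771 to 5223 in musculus x castaneus F1, 9081 to 10288 in castaneus x musculus F1, 9438 to 10488 in castaneus and 11223 to 11572 in musculus. Summed macrophage markers did not share this low level, at 2174 to 2298 in musculus x castaneus F1 against 1421 to 1608 in castaneus x musculus F1. In the parents they were 1701 to 1727 in castaneus, 1866 to 1876 in musculus and 2409 to 2414 in domesticus. Summed testis markers were 69374 to 78499 in musculus x castaneus F1, 77109 to 83357 in castaneus x musculus F1, 80356 to 99120 in castaneus and 104706 to 128361 in musculus. Their part in the F1 results below was not tested.

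In testis of the castaneus cross, Ifi35 took a level between its parents. It read 902 and 1133 in musculus x castaneus F1, 1799 and 1412 in castaneus x musculus F1, 2510 and 3108 in castaneus, and 267 and 283 in musculus. The F1 mean was lower than castaneus (-1.12 ± 0.148, adjusted p = 0.00103) and higher than musculus (2.09 ± 0.148, adjusted p = 1.1e-05). In all, 2 members were lower and 0 were higher than in castaneus (5.83% of all probe sets called), and 2 were higher and 1 was lower than in musculus (12% of all probe sets called). The lower one was Herc6 (375 and 372 in musculus x castaneus F1, 315 and 422 in castaneus x musculus F1, 840 and 648 in musculus), and the count against musculus was 5 with musculus x castaneus F1 alone and 1 with castaneus x musculus F1 alone. Against castaneus, Dhx58 was the other lower member (-0.42), and it lost its call without any 1 of the 6 arrays, whereas the count, which can include other members, was 1 without castaneus replicate 1 or musculus x castaneus F1 replicate 1.

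Against the mean of the parents, 1 member of the testis castaneus cross was higher (Ifi35, 0.49) and 1 was lower (Herc6, -0.83), out of 8.72% of all probe sets called. Ifi35 turned to -0.27 with the mean of the parents taken on the linear scale. The count of 2 was 3 without castaneus replicate 2, and 1 without castaneus replicate 1, either musculus replicate, musculus x castaneus F1 replicate 2 or castaneus x musculus F1 replicate 1. Between the reciprocal F1, musculus x castaneus minus castaneus x musculus, 2 members were higher (Rtp4, 1.05, and Ifi27, 0.88) and 2 were lower (Ifi35, -0.64, and Dhx58, -0.62). With 14.7% of all probe sets called in that comparison, the share of the 40 members (10%) was no higher than the background. Of the 40, 35 were positive, with a median of 0.46 against 0.19 over all probe sets. In limma, 14 had an unadjusted p under 0.05. The shares of all probe sets that were positive or had such a p were not counted, so the 35 and the 14 have no background. Male 1 of castaneus x musculus F1 read lower than male 2 in 31 of the 40, and its part in the positive differences was not tested. The count was 1 without castaneus x musculus F1 replicate 1 and 2 without either musculus x castaneus F1 replicate.

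In the other reciprocal comparisons limma called 0 of the 40 members. At an unadjusted p under 0.05 these held 1 member in brain and 1 in liver of the castaneus cross (0.0111% and 0% of all probe sets called), and 0 in brain, 6 in liver and 3 in testis of the domesticus cross (0.0178%, 0.0244% and 0.0844% called). The shares called are at the adjusted threshold and are no background for these counts.

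The F1 means of domesticus and musculus lay between their parents in the genes that separated these, but not every F1 array did. In testis, Rtp4 read 44 and 5 in musculus x domesticus F1, against 29 and 16 in musculus. Testis Dhx58 reached 1216 in musculus x domesticus F1 and 1239 in domesticus x musculus F1, within the musculus values of 1195 and 1320. In liver, Xaf1 read 502 and 332 in musculus x domesticus F1, 322 and 423 in domesticus x musculus F1, 76 and 109 in domesticus, and 1505 and 995 in musculus. The F1 mean was higher than domesticus (1.78 ± 0.288, adjusted p = 0.0173) and lower than musculus (-1.58 ± 0.288, adjusted p = 0.0222). Ifi27 read 1823 and 1721 in musculus x domesticus F1 and 1595 and 1777 in domesticus x musculus F1, against 357 and 305 in musculus (2.28 ± 0.325, adjusted p = 0.00475). Mx2 read 183 and 96 in musculus x domesticus F1 and 109 and 287 in domesticus x musculus F1, against 41 and 43 in domesticus and 619 and 673 in musculus, and was lower than musculus (-1.86 ± 0.346, adjusted p = 0.0253).

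Counting all members, 2 were higher than domesticus in liver F1 (Xaf1 and Lgals3bp, 0.44% of all probe sets called), and 1 was higher and 2 were lower than musculus (0.941% called). In brain 1 was higher than domesticus (Xaf1, 1.33, with 0.326% of all probe sets called) and 1 was lower than musculus (Ifit2, -0.97, with 0.968% called). In testis limma called 0 against domesticus (7 at an unadjusted p under 0.05, 1.42% of all probe sets called) and 1 against musculus (Ifi27, 0.99, with 2.2% called). None of these calls lasted without each of the 6 arrays, and the liver count against musculus was 0 without musculus replicate 1 and 1 without musculus replicate 2, musculus x domesticus F1 replicate 2 or domesticus x musculus F1 replicate 1. The liver count against domesticus was 0 or 1 without each of the 6 arrays. Against the mean of the parents limma called 0 members in brain, liver and testis, with 1, 11 and 1 at an unadjusted p under 0.05 and 0.0444%, 0.0933% and 0.178% of all probe sets called. The shares called are at the adjusted threshold and are no background for counts at an unadjusted p.

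The difference of castaneus from musculus depended on tissue in part of the members, by a test of the difference itself on all 42 arrays with the animal as a block. Liver minus brain gave 10 members higher and 2 lower (3.41% of all probe sets called), and liver minus testis 21 higher and 1 lower (7.82% called). Testis minus brain gave 1 higher and 4 lower (3.26% called). Ifit2 had the largest change between liver and brain, 3.63 ± 0.471 (adjusted p = 1.32e-05), since it was higher in castaneus liver and lower in castaneus brain. Mx2 was higher in castaneus in both tissues, at 2.44 in liver and 2.72 in brain, and its difference between them was not called (-0.28, adjusted p = 0.895).

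For domesticus the same tests gave 1 higher and 3 lower for liver minus brain (3.28% of all probe sets called), 2 higher and 3 lower for liver minus testis (7.39% called), and 2 higher and 0 lower for testis minus brain (3.58% called). Both sets of comparisons use the same musculus arrays. Without the animal as a block the count for castaneus was 3 between liver and brain and 17 of the 22 calls between liver and testis remained.

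**Figure D5:**
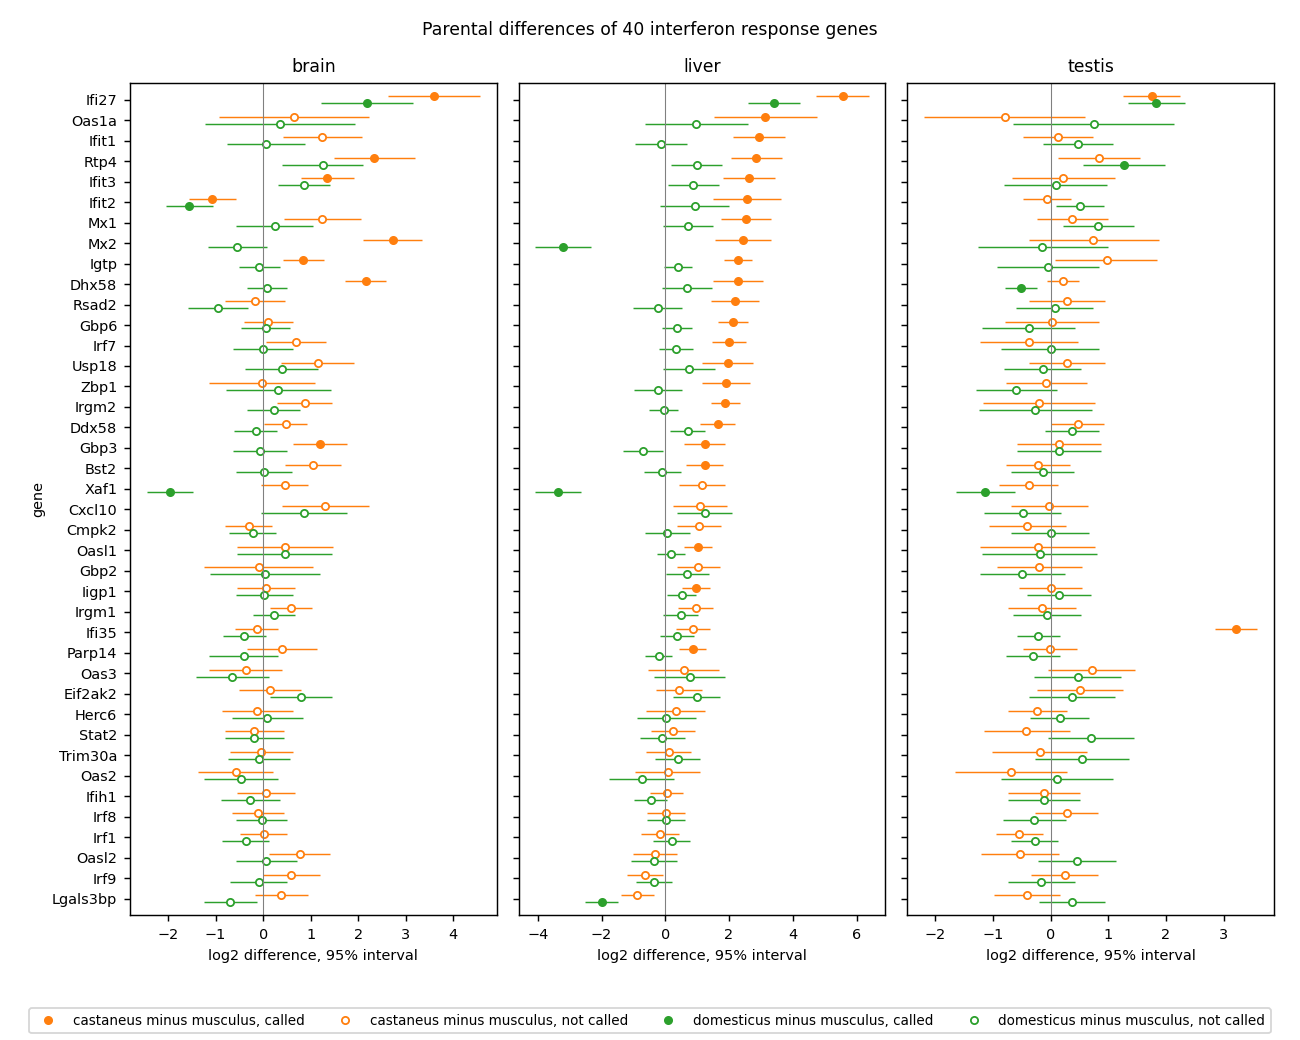
Log2 difference of castaneus (orange) and domesticus (green) from musculus with 95% intervals for the 40 genes in 3 tissues, ordered by the castaneus difference in liver; filled points were called by limma. In liver 22 castaneus points are filled, all right of zero, whereas the 4 filled domesticus points are Ifi27, Mx2, Xaf1 and Lgals3bp.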

How the data were processed

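Total RNA was labelled with biotin and hybridised to Affymetrix mouse arrays, 1 array per male and tissue. The authors deposited signal intensity values from MAS5, the tool named in the submitters' processing notes, whose version is not given in the sources used here. Trimmed means near 500 show that the deposited intensities were scaled alike. The values were not normalized further. All 45037 probe sets were tested in each tissue on log2(signal + 31), 31 being the 20th percentile of all values, with limma 3.58.1 in R 4.3.3 (genotype as factor, 14 arrays, trend), and p-values were adjusted by Benjamini-Hochberg over all probe sets. A call is an adjusted p under 0.05. Shares of all probe sets were counted at this threshold only, so counts of members at an unadjusted p have no background. F1 values are the mean of both reciprocal F1. Dependence on tissue was tested on 42 arrays with the animal as a random block (correlation 0.195), since all 21 comparisons of a male's deviations between tissues correlated above 0.1 (0.102 to 0.312).

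Genes were named from the platform annotation, in which 34945 probe sets have 1 symbol, 932 several and 9160 none. For a gene with several probe sets, the one of highest mean log2 signal over all arrays stood for it, leaving out _x_at probe sets where another existed. Values on every array were given for called members without overlap between the parents, at most 10 per tissue and contrast; those of Ddx58, Zbp1, Ifih1, Irf7, Irf9 and Cmpk2 in liver, of Dhx58 and Herc6 in testis and of F1 were added after they were seen. Pathway genes are named where called. The members and lists were chosen with earlier results of these data known. The test was tried on simulated data. Male numbers were not used as pairs: across genotypes 31 of 63 same-numbered pairs correlated above 0.1 (-0.345 to 0.404). The labels call the males biological replicates, and p-values measure the spread between 2 males per genotype. Alternatives were quantile normalization, an offset of 100, a filter at the 40th percentile, the brightest probe set per tissue, male number as a block, a linear mean of the parents, and leaving out arrays. No detection calls were used, and no probe or gene sequence was used here.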

Additional observations from a re-analysis of the deposited data

Results flagged for a closer look

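The difference of a subspecies from musculus changed with tissue, by the interaction test in limma, in the following members; at most the 5 largest of each comparison are given, as a log2 difference of differences with its adjusted p. For castaneus, liver minus brain gave Ifit2 3.63 (1.32e-05), Rsad2 2.35 (0.00104), Gbp6 2.02 (0.00383), Ifi27 1.96 (0.0203) and Zbp1 1.93 (0.045). Liver minus testis gave Oas1a 3.94 (0.0129), Ifi27 3.81 (4.91e-06), Ifit1 2.79 (0.000187), Ifit2 2.62 (0.000423) and Ifit3 2.4 (0.00137). Testis minus brain gave Ifi35 3.34 (8.56e-10), Dhx58 -1.93 (0.000595), Ifi27 -1.84 (0.0315), Oasl2 -1.29 (0.0461) and Bst2 -1.25 (0.0306). Dhx58 rests on a probe set whose direction in brain another probe set did not share.

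For domesticus, liver minus brain gave Mx2 -2.68 (0.00542), Ifit2 2.47 (0.00181), Xaf1 -1.4 (0.0258) and Lgals3bp -1.31 (0.012). Liver minus testis gave Mx2 -3.07 (0.000633), Lgals3bp -2.37 (4.57e-06), Xaf1 -2.23 (0.000119), Ifi27 1.57 (0.0477) and Dhx58 1.2 (0.0276). Testis minus brain gave Ifit2 2.06 (0.00851) and Lgals3bp 1.06 (0.0497). Gbp6 and Zbp1 in brain, and Ifit2 in testis, were dim on every array, so the differences involving them compare a measured tissue with one near the bottom of the scale. The same limit holds for Mx2 in the domesticus tests. In brain Mx2 read 13 and 14 in domesticus and 34 and 33 in musculus. In testis it read 15 and 13 in domesticus and 12 and 26 in musculus. Ifit2 was also near the bottom in musculus liver, at 6 and 14. Castaneus and domesticus share the musculus arrays in all of the tissue tests.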

How the results depend on the processing

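With 2 males per genotype, single arrays decided much. Of 387 counts of called members under an alternative, 299 stayed within 1.5 times the reported count and 88 did not; of 1278 single-gene values, 1011 kept direction and call, 263 kept direction without the call, and 4 reversed. The causes were not tested. The 4 reversed values were Dhx58 in brain with its brightest probe set (-0.42 for castaneus minus musculus, -0.35 for castaneus minus domesticus and 0.26 for F1 minus castaneus) and testis Ifi35 with a linear mean of the parents (-0.27).

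Without single arrays, brain counts ranged from 3 to 6 (castaneus minus musculus), 3 to 4 (castaneus minus domesticus), 2 to 5 (castaneus-cross F1 minus castaneus), 0 to 1 (the same F1 minus musculus and minus the mean of the parents), 0 to 1 (domesticus-cross F1 minus domesticus) and 0 to 0 (the same F1 minus musculus). Liver counts ranged from 13 to 16 (castaneus minus musculus), 11 to 14 (castaneus minus domesticus), 3 to 20 (castaneus-cross F1 minus castaneus), 1 to 4 (the same F1 minus musculus) and 0 to 1 (minus the mean of the parents), and from 0 to 1 and 0 to 3 for domesticus-cross F1 minus domesticus and minus musculus. Testis counts ranged from 1 to 2 (domesticus minus musculus), 1 to 2 (castaneus-cross F1 minus castaneus), 1 to 3 (the same F1 minus the mean of the parents), 0 to 1 (domesticus-cross F1 minus musculus) and 1 to 4 (reciprocal castaneus cross).

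With male number as a replicate block, the count was 1 for castaneus-cross F1 minus musculus in brain and 1 for domesticus-cross F1 minus domesticus in liver, and 23 for castaneus minus musculus in liver; no other count moved by over 1.5 times. Without the animal as a block, the tissue tests gave 3 (castaneus, liver minus brain), 2 (testis minus brain), and for domesticus 2 (liver minus brain), 3 (liver minus testis) and 1 (testis minus brain). An offset of 100 gave 1 for castaneus-cross F1 minus the mean of the parents in brain, 1 for domesticus-cross F1 minus domesticus in liver, and 8 and 1 for testis minus brain in castaneus and domesticus. Quantile normalization gave 1 for castaneus-cross F1 minus musculus in liver and 2 for the reciprocal castaneus cross in testis. The filter at the 40th percentile, which tests fewer probe sets, gave in testis 4 for castaneus minus domesticus, 4 for castaneus-cross F1 minus castaneus, 1 for domesticus-cross F1 minus domesticus and 7 for the reciprocal castaneus cross. A linear mean of the parents gave 1 in testis of the castaneus cross. Using 1 reciprocal F1, and F1 positions on the log2 scale, were chosen after seeing the data. With musculus x castaneus F1 alone, F1 minus castaneus gave 3 in brain and 9 in liver, F1 minus musculus 1 in liver and 5 in testis, and F1 minus the mean of the parents 4 in testis. With castaneus x musculus F1 alone, F1 minus castaneus gave 3 in brain, F1 minus musculus 1 in liver and 1 in testis, and F1 minus the mean of the parents 0 in testis.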

Other observations

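The 2 males of a genotype sometimes differed in most members at once. In testis of castaneus x musculus F1, male 2 read higher than male 1 in 31 of the 40 members, by a median of 0.4 on the log2 scale, against 0.17 over all probe sets. In domesticus x musculus F1 male 2 was higher in 24 of 40 members in brain and in 25 of 40 in liver. In domesticus liver and testis each male was higher in 20 of 40.

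Of 8 acute-phase genes in liver, 1 was higher and 1 was lower in castaneus than in musculus, and 1 was higher and 2 were lower in domesticus than in musculus. Orm1, a secreted plasma protein gene, was higher in castaneus (4.7) and lower in domesticus (-4.37). Saa1, a serum amyloid gene, was lower in castaneus (-1.38, adjusted p = 0.0206 in limma). In domesticus Saa3 was higher (2.32) and Lcn2 was lower (-2.14). The other 6 genes were not called in castaneus. Summed signals of 8 acute-phase genes were 59813 to 73100 in castaneus livers, 79850 to 94988 in domesticus livers and 59710 to 67124 in musculus livers.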
